A study of Mus musculus with 43 samples.

Results

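The neurotensin receptor genes *Ntsr1* and *Ntsr2* and the 5 genes of the sortilin family, *Sort1*, *Sorl1*, *Sorcs1*, *Sorcs2* and *Sorcs3*, were described in 43 NAcLat→VTA cells. The 7 genes were chosen by name out of the 35825 genes in the tables. NAcLat→VTA cells are neurons of the lateral nucleus accumbens whose axons reach the ventral tegmental area (VTA). They were labelled with fluorescent beads placed in the VTA and recorded in brain slices. Their cytosol was then aspirated through the patch pipette, and each library was made from the poly-A RNA aspirated at 1 cell. Of the 43 cells, 23 came from mice on a regular diet (REG, called NORM in the labels) and 20 from mice on a high-fat diet (HFD). REG mice ate standard chow, and HFD mice had free access to both standard chow and high-fat chow for several weeks. The mice were young adults, and males and females of the C57BL/6J line were used in the study. In batch 1 of the labels there were 13 cells from REG and 5 from HFD mice, and in batch 2 there were 10 and 15. No label ties a cell to its mouse, so a diet counts as a single sample here and no test was run. Amplified reads are not independent molecules, and the intervals cover counting error only. Cells are numbered within their diet in the order of the labels, as names only.

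Neurotensin is a peptide transmitter cut from a larger precursor. NTSR1 and NTSR2 are G-protein-coupled receptors for it. NTSR1 binds it tightly and is known from VTA dopamine neurons, whereas NTSR2 binds it more weakly and is known from astrocytes as well as neurons. Sortilin, SorLA and the SorCS proteins belong to another class, with a single membrane-spanning stretch and a Vps10p domain outside the cell. They sort cargo between the Golgi apparatus, endosomes and the cell surface, and sortilin and SorLA also bind neurotensin.

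Total counts ranged from 176961 to 16919555 per cell, with a median of 1426795. The GABAergic markers *Gad1* and *Gad2* and the dopamine D1 receptor gene *Drd1* were detected in all 43 cells, and the GABAergic marker *Slc32a1* in 36. Of the other D1 markers, *Tac1* and *Pdyn* were detected in all 43 cells, *Isl1* in 36 and *Chrm4* in 26. Markers of other cells were present too: summed markers had a median of 368 CPM for astrocytes, 145 CPM for oligodendrocytes and 80.6 CPM for microglia, with up to 1888 CPM of microglial markers in 1 cell. CPM is counts scaled to the library (the estimated count over the total count of the cell, times 1000000). On this scale *Drd1* was over 15 CPM in 40 of the 43 cells. Of the 12 astrocyte markers *S100b* was found in 43 cells and *Slc1a2* in 41, while *Aqp4*, *Gfap*, *Aldh1l1*, *Gjb6* and *Acsbg1* had medians of 0. By limits chosen after the data were seen, 7 cells stood apart from the other 36 in their medium spiny neuron markers. Of these, 3 cells summed to under 400 CPM over 5 D1 markers, and 4 cells summed to over 200 CPM over the 4 D2 markers in the tables. Several of the highest values below came from these cells, and they are named where that was so.

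For *Ntsr2* and *Sort1* the annotation holds a long transcript that keeps an intron or a piece of one, and counts were given to it in these cells. The sequences across the intron edges are shown because they are what separates that transcript from the spliced mRNA. Each is on the plus strand of GRCm38, 5′ to 3′, with exon bases in lower case and intron bases in capitals. *Ntsr2* lies at chr12:16653382-16660227. Its transcript Ntsr2-205 keeps the whole intron between exons 2 and 3 of the coding transcript Ntsr2-201, at chr12:16656871-16658364, which is 1494 bases long.
Ntsr2-205, exon 2 into intron, chr12:16656856-16656885: gcgcccaggttctcaGTTAAGTCCTCTACC
Ntsr2-205, intron into exon 3, chr12:16658350-16658379: CCCACTCTCCTTCAGgagccatcgtggctg
Ntsr2-201, exon 2 joined to exon 3: gcgcccaggttctcagagccatcgtggctg
*Sort1* lies at chr3:108284082-108361511. Its transcript Sort1-202 starts inside the intron before exon 18 of the coding transcript Sort1-201, keeps the last 764 bases of that intron, at chr3:108355467-108356230, and runs on through the last exons.
Sort1-202, intron into exon 18, chr3:108356216-108356245: TTTTAATTTATCAAGaattccaagtcaaat
Sort1-201, exon 17 joined to exon 18: aaccccacaaagcagaattccaagtcaaat

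*Ntsr1*, the gene of the high-affinity receptor, had a count of 0 in every cell of both diets. By a floor of 3 counts, 0 of 43 cells allows a share of up to 6.98% of cells with a count, which is no limit on cells that express the gene. On the same floor, 0 of 95215680 counts allows up to 0.0315 CPM over the pooled counts. Its 2 annotated transcripts hold 3915 words of 31 bases, the unit in which reads were matched, and share 0 of them with another gene. At this depth *Ntsr1* mRNA was not detectable in these cells.

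*Ntsr2*, the gene of the low-affinity receptor, was detected in 15 of 43 cells, or 34.9% (exact Clopper-Pearson 95% interval, 21.01 to 50.9%). REG cells ranged from 0 to 230.1 CPM with a median of 0, with a count in 7 of 23 cells. HFD cells ranged from 0 to 161 CPM with a median of 0, with a count in 8 of 20 cells. The diets overlapped over nearly their whole range, and most cells of each diet had no count. A few cells carried most of the signal: REG cell 16 had 319 counts (230.1 CPM), HFD cell 20 had 1325 counts (161 CPM) and HFD cell 6 had 120 counts (129 CPM). REG cell 13 had 55.3 CPM, HFD cell 16 had 39.6 CPM and REG cell 2 had 31.5 CPM. The other 9 cells with a count were at 11.9 CPM or lower. Once every cell was thinned to 150000 counts, 9 cells still held *Ntsr2*.

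The cells high in *Ntsr2* were compared with marker genes, since NTSR2 is known from astrocytes. In REG cell 16, *Aqp4*, *Gfap*, *Aldh1l1*, *Gja1*, *Gjb6* and *Slc1a3* were all at 0. The astrocyte-expressed genes *Slc1a2*, *Aldoc* and *Glul* were at 120, 449 and 203 CPM there. HFD cell 20 had counts for 10 of 12 astrocyte markers, with *Aldoc* at 31.4, *Slc1a2* at 21.3 and *Glul* at 12.3 CPM, *Aqp4* and *Aldh1l1* at 0.121 CPM each, and *Gfap* and *Gjb6* at 0. Over the whole list of 12 astrocyte markers, REG cells summed to between 30.9 and 1163 CPM and HFD cells to between 101 and 1557 CPM. HFD cell 15 and HFD cell 17, the cells with the highest astrocyte sums (1557 and 1308 CPM), had 1 *Ntsr2* count each. The next 5 cells by astrocyte sum had none, while HFD cell 6 (896 CPM) and REG cell 16 (867 CPM) came after them. The Spearman correlation of *Ntsr2* with this sum was 0.09 over the 43 cells, 0.09 in batch 1 and 0.01 in batch 2.

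The cells high in *Ntsr2* included cells high in D2 markers, such as the adenosine receptor gene *Adora2a* and the receptor gene *Gpr6*. Of the 6 cells over 15 CPM of *Ntsr2*, 3 were among the 4 cells over 200 CPM of summed D2 markers. REG cell 16 had 333 CPM of D2 markers, with *Gpr6* at 208 CPM, *Adora2a* at 73.6 CPM and *Drd2* at 0. Its D1 markers summed to 1039 CPM, with *Pdyn* at 729, *Tac1* at 234 and *Drd1* at 0.721 CPM. HFD cell 16 had the highest D2 sum of all cells, 1380 CPM, mostly from *Penk* at 1254 CPM, and HFD cell 6 had 266 CPM. Their D1 markers summed to 1641 and 1122 CPM, so in each of these 3 cells the D1 sum was above the D2 sum. HFD cell 20 was not among the 4 cells over 200 CPM of summed D2 markers. Its *Drd1* was at 842 CPM and its *Drd2* at 0, as *Drd2* was in REG cell 16. Over the 43 cells the Spearman correlation of *Ntsr2* with the D2 sum was 0.31, and it was 0.20 in batch 1 and 0.37 in batch 2. It was 0.26 with the microglial sum (−0.02 and 0.39), 0.19 with the oligodendrocyte sum (0.45 and 0.00) and 0.22 with the total count (0.44 and 0.03). What part any of these had in the *Ntsr2* values was not tested.

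*Ntsr2* and its ligand gene were mostly found together, because *Nts* was nearly everywhere: 14 of the 15 cells with *Ntsr2* also had *Nts* counts. The exception was HFD cell 20, with 1325 counts of *Ntsr2* and 0 of *Nts* out of 8242048 counts. REG cell 16, the other cell at the top, had 2.89 CPM of *Nts*, and 7 of the 43 cells were under 3 CPM. HFD cell 6 and REG cell 13 held both, at 587 and 1042 CPM of *Nts*.

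**Figure D1:**
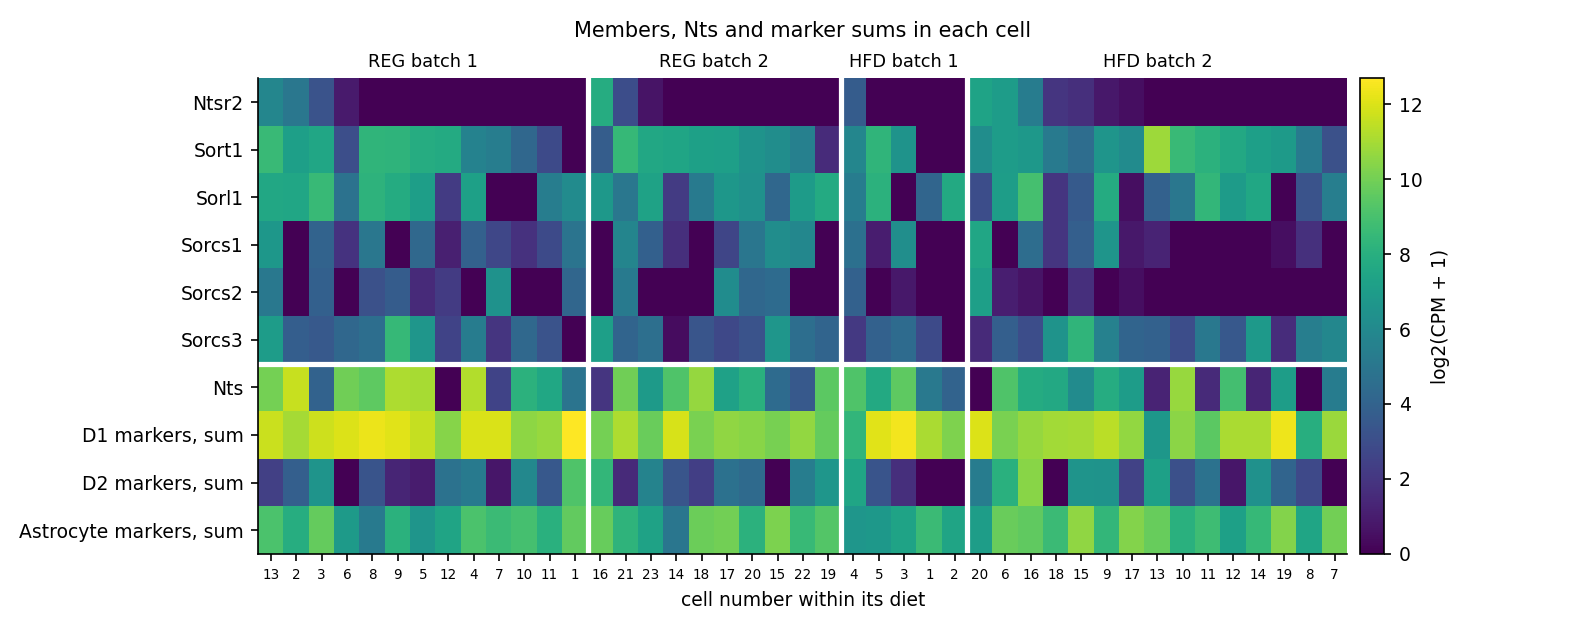
Level of 6 members, of *Nts* and of the summed D1, D2 and astrocyte markers in each of the 43 cells, as log2(CPM + 1) by colour, grouped by diet and batch and ordered within a group by *Ntsr2*. *Ntsr2* is at 0 in 28 cells, whereas *Sort1*, *Sorl1* and *Sorcs3* are above 0 in 40, 39 and 41.

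The transcript behind these counts differed from cell to cell. Within a cell, the ratio of a gene's estimated count to its TPM (transcripts per 1000000 transcripts) is proportional to the effective length of the transcripts that its counts were given to. Genes with 1 annotated transcript set the scale, and among such genes held out of the fit a median of 97.5% per cell were read back within 1% of their length. *Ntsr2* could be read in the 9 cells with at least 10 counts. REG cell 16, REG cell 13 and HFD cell 16 read 1523 bases, next to the 1524 bases of the coding Ntsr2-201. REG cell 2 read 2757 bases, the length of the intron-holding Ntsr2-205. HFD cell 20 read 2633 bases, which places at least 94.8% of its 1325 counts on Ntsr2-205 if the rest lay on Ntsr2-201, and HFD cell 6 read 1984 bases, or at least 54.2%. Of the 2723 words of 31 bases in Ntsr2-205, 1516 are found in no other *Ntsr2* transcript, so counts on it call for reads from the intron shown above. The counts of the highest REG cell and of the highest HFD cell were thus given mostly to different *Ntsr2* transcripts. The other 1207 words of Ntsr2-205 are shared with other *Ntsr2* transcripts, so the shares rest on the assignment as well.

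*Sort1*, the gene of sortilin, was detected in 40 of 43 cells and was the member with the highest level. REG cells ranged from 0 to 391 CPM with a median of 140.1 CPM, and HFD cells ranged from 0 to 1826 CPM with a median of 93.1 CPM. Apart from HFD cell 13 the diets overlapped, since the next highest HFD cell, at 390.6 CPM, lay beside the highest REG cell. HFD cell 13 held 2569 counts and made up 45.6% of the summed CPM of all HFD cells. It also had the lowest D1 marker sum of all cells (104 CPM), the second highest sum of other interneuron markers (222 CPM, of which *Npy* gave 206) and 1.42 CPM of *Nts*. Of the rest of that interneuron list, *Sst* was at 7.82, *Pvalb* at 5.69, *Nos1* at 1.45 and *Slc5a7* at 0.711 CPM. *Chat*, *Vip* and *Th* were at 0, while *Drd1* was at 86.0 and *Penk* at 149 CPM. HFD cell 13 still had 1217 CPM of the 3 GABAergic markers. Its D1 marker level was not tested as a source of its *Sort1* level. The cells with no *Sort1* count were REG cell 1, HFD cell 1 and HFD cell 2, all from batch 1, and all 25 cells of batch 2 had a count. These 3 were among the shallowest libraries, with totals of 176961, 178341 and 262790 counts. HFD cell 7 of batch 2, with a total of 258089, had 2 *Sort1* counts. Depth and batch were not tested as sources of the missing counts.

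In *Sort1*, 35 cells had enough counts to read a length. In 11 of them the length was within 1% of the 6796 bases of the coding Sort1-201, and in 2 it was within 1% of the 5193 bases of Sort1-202. The rest lay between, as mixtures of both would. The share on Sort1-202 had a median of 34.8% in 18 REG cells and 10.9% in 17 HFD cells. Weighted by CPM it was 24.4% in REG and 44.8% in HFD, the opposite order. It ran from 0 to over 99% in each diet. HFD cell 13 read 5566 bases, a share of 71.4%. Only 690 of the 5163 words of Sort1-202 are found in no other *Sort1* transcript, because its last exons are those of the coding mRNA. A read from those exons belongs equally to both, so the share on Sort1-202 is a result of the assignment and is no measure of intron reads.

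**Figure D2:**
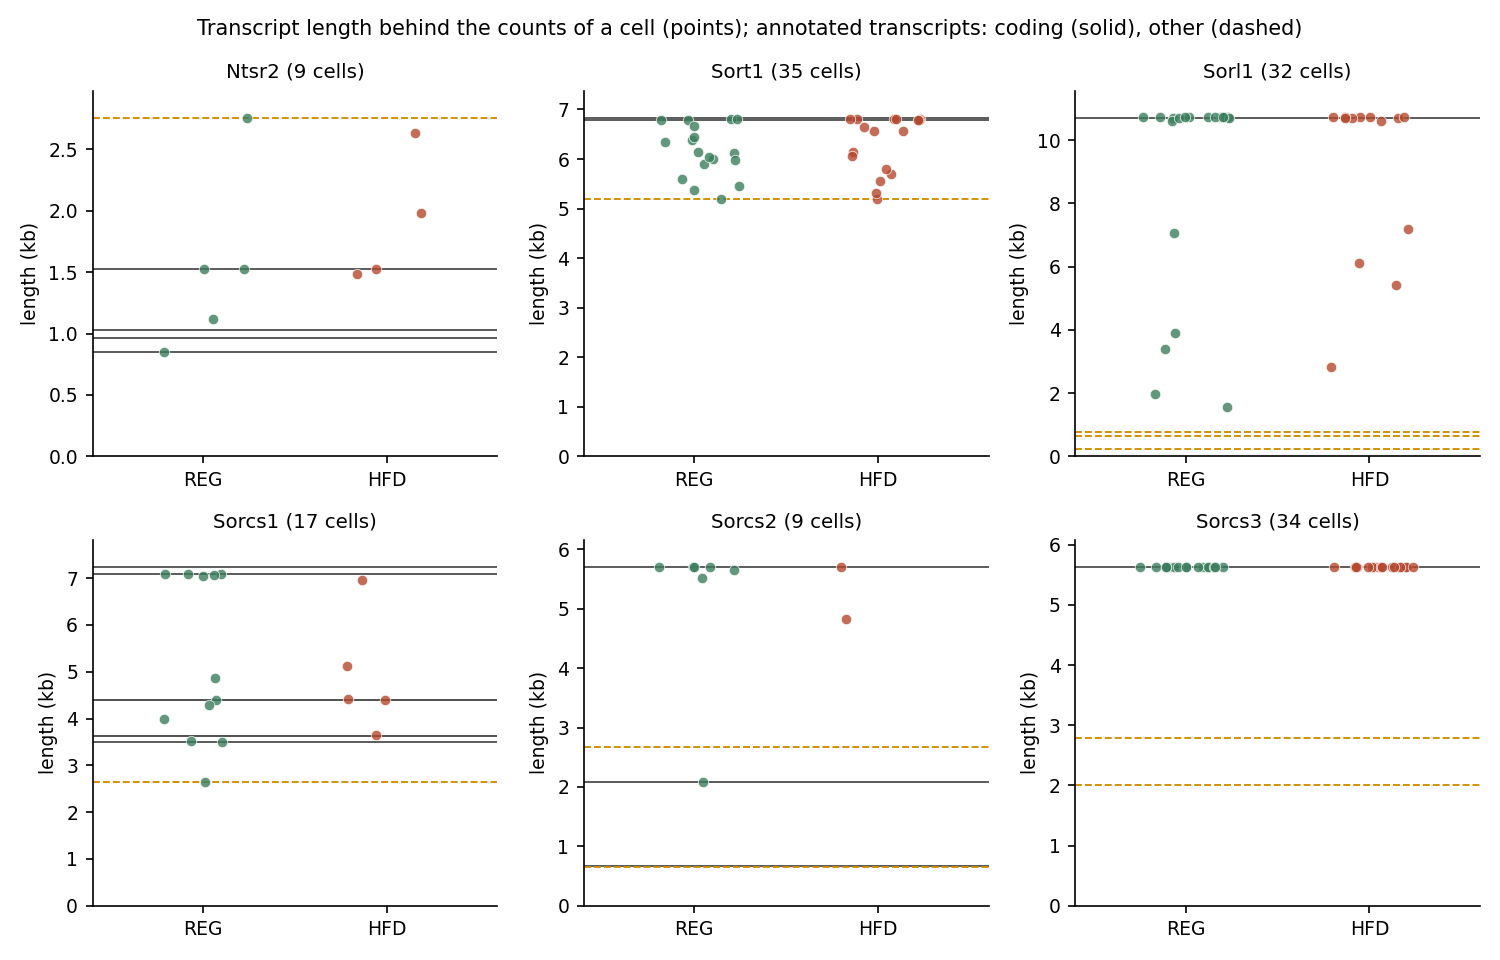
Length in kilobases of the transcript that the counts of a gene were given to, read from count over TPM, for each cell with at least 10 counts (REG green, HFD red). Lines mark the annotated coding transcripts (solid) and other transcripts (dashed), and the *Sorcs3* points lie on the 5634-base line in all 34 cells, whereas *Sort1* points spread between 5193 and 6796 bases.

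*Sorl1*, the gene of SorLA, which carries the amyloid precursor protein among other cargo, was detected in 39 of 43 cells. REG cells ranged from 0 to 368 CPM with a median of 103 CPM, and HFD cells ranged from 0 to 496 CPM with a median of 35.2 CPM. The highest was HFD cell 16, one of the cells over the D2 limit. The means were nearly equal, at 111 CPM in REG and 108 CPM in HFD. In REG 19 of 23 cells were over 15 CPM and in HFD 12 of 20, so the medians were further apart than the means, and the diets overlapped. No cell lacked both *Sort1* and *Sorl1*: the 3 cells without *Sort1* had *Sorl1*, and the 4 cells without *Sorl1* had *Sort1*. With so few cells lacking either gene, no overlap was the likely outcome and says nothing of how the genes are related. In 22 of 32 cells the length read within 1% of the 10715-base coding transcript, the only coding transcript annotated. REG cell 8 read 1574 bases, which puts up to 33.0% of its 1353 counts on short noncoding transcripts, of which Sorl1-202 and Sorl1-204 are annotated as keeping an intron. That upper bound was 24.9% in REG cell 11. The level of REG cell 8, 298 TPM, was the highest of any cell although its 289 CPM was not, because counts on short transcripts weigh more in TPM.

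*Sorcs1* and *Sorcs2*, genes of sorting receptors of the plasma membrane and endosomes, were found in fewer cells. *Sorcs1* was detected in 30 cells, 18 of the 23 from REG and 12 of the 20 from HFD mice. It ranged from 0 to 105 CPM (median 6.19) in REG cells and from 0 to 180 CPM (median 0.898) in HFD cells. *Sorcs2* was detected in 19 cells, 12 of the 23 from REG and 7 of the 20 from HFD mice. It ranged from 0 to 89.0 CPM (median 1.84) in REG cells and from 0 to 142 CPM (median 0) in HFD cells. HFD cell 20, the deepest HFD cell and the one with the most *Ntsr2* counts, had the highest level of both. It made up 42.7% of the summed *Sorcs1* CPM and 87.9% of the summed *Sorcs2* CPM of all HFD cells.

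Over all 43 cells *Sorcs1* and *Sorcs2* had the highest correlation of any pair of detected members, though within batch 1 *Sort1* and *Sorcs3* had a higher one (0.64). Of the 19 cells with *Sorcs2*, 17 had *Sorcs1*, and 11 cells had neither. The Spearman correlation of their CPM was 0.57 over 43 cells, 0.55 within batch 1 and 0.54 within batch 2. In each gene's order of likeness among the 10802 filtered genes the other stood eighth, and 99% of genes were under 0.45 for *Sorcs1* and 0.43 for *Sorcs2*. With counts thinned to 150000 per cell the correlation was 0.36, and both genes are sparse and share the depth of each library. This pair was picked out after its value was seen. *Sorcs1* lengths fell into several annotated forms, with 5 of 17 cells at the 7080-base transcript and 3 cells at 1 of a pair of transcripts of 4396 and 4398 bases, which the reading cannot tell apart. *Sorcs2* read within 1% of the 5707-base coding transcript in 6 of 9 cells.

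*Sorcs3*, whose product acts at synapses, was detected in 41 of 43 cells at a low level. After thinning it was detected in 33 cells, against 40 for *Sort1* and 37 for *Sorl1*. REG cells ranged from 0 to 363 CPM (median 16.2) and HFD cells from 0 to 312 CPM (median 14.3), so the diets overlapped. REG cell 9 and HFD cell 15 were far above the rest, and made up 33.7% and 38.6% of the summed CPM of their diets. Its estimated counts were not whole numbers (by more than 0.01) in 41 of 41 cells with a count, while the counts of the other 5 detected members were whole in every cell. Non-whole counts arise where reads are divided between genes. *Sorcs3* shares 8 words of 31 bases with other genes, and 6 of the 8 lie on a run of 26 A bases in its 3′ untranslated region. *Tacc1* shares 5 of them and was not whole in 42 of its 43 cells. How many *Sorcs3* counts rest on that run was not tested, and the count of 41 cells carries that limit.

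**Figure D3:**
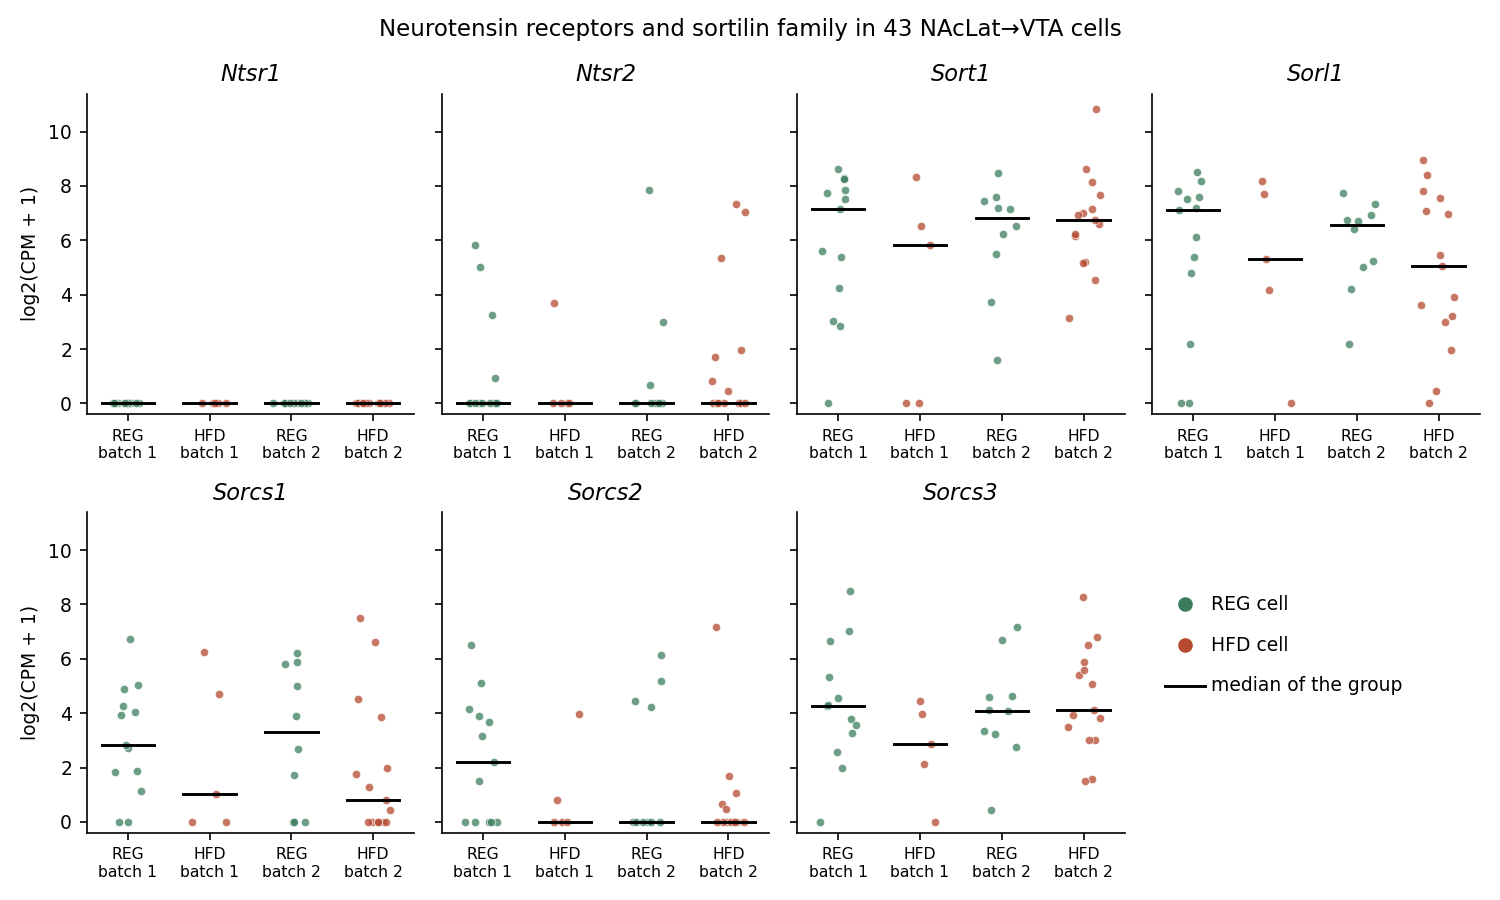
Level of each of the 7 genes as log2(CPM + 1) in every cell (points), by diet and batch, with the median of each group (bar). *Ntsr1* is at 0 throughout, most *Ntsr2* points are at 0 with a few high cells in each diet, and HFD cell 13 stands above all other *Sort1* points.

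Levels of different genes were ordered in TPM, which accounts for transcript length. The median over 43 cells was 26.8 TPM for *Sort1*, 14.04 TPM for *Sorl1*, 4.29 TPM for *Sorcs3*, 0.863 TPM for *Sorcs1*, and 0 for *Ntsr2* and *Sorcs2*. By median TPM, *Sort1* lay above 76.7% of the 10802 filtered genes and *Sorl1* above 65.9%. Neighbours in this order crossed in many cells. *Sort1* exceeded *Sorl1* in 25 of 43 cells and was below it in 18, *Sorl1* exceeded *Sorcs3* in 25 and was below it in 18, and *Sorcs3* exceeded *Sorcs1* in 25 and was below it in 17. The order is therefore one of medians, and *Sort1* was the highest member in 15 cells, *Sorl1* in 14, *Sorcs3* in 7, *Ntsr2* and *Sorcs1* in 3 each and *Sorcs2* in 1. All 5 sortilin family genes were detected in 14 cells, 4 in 15 cells, 3 in 12 cells, and fewer in 2 cells. After thinning to 150000 counts, all 5 were detected in 4 cells, 4 in 13 cells and 3 in 19 cells. Their summed level had a median of 56.8 TPM in REG cells (9.44 to 375) and 65.8 TPM in HFD cells (3.53 to 419). *Nts* exceeded *Sort1* in 35 of 43 cells.

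The diet comparison asked whether the genes that receive or sort neurotensin differed between cells of REG and HFD mice, beside the ligand. Values are the log2 ratio of mean CPM in HFD cells over REG cells. *Ntsr1* had no ratio, and the other 6 members passed the filter for expressed genes. Over all cells no member reached a ratio of 1 in size (a factor of 2), against 23.3% of the 10802 filtered genes. The ratio was 0.56 for *Sort1*, 0.26 for *Ntsr2*, 0.05 for *Sorcs1*, −0.04 for *Sorl1*, −0.21 for *Sorcs3* and −0.79 for *Sorcs2*. The median over the 6 members was 0.01, and over all filtered genes it was −0.13. For *Nts* the ratio was −1.51 by the same measure, −1.68 in batch 1 and −0.83 in batch 2. With any 1 cell left out the *Nts* ratio ran from −1.99 to −1.29 over all cells, and from −1.59 to −0.32 in batch 2.

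Most of these ratios rested on 1 cell. Without HFD cell 13 the *Sort1* ratio went from 0.56 to −0.25. Without REG cell 16 the *Ntsr2* ratio was 1.88, and without HFD cell 20 it was −0.56. Without HFD cell 20 the *Sorcs2* ratio was −3.77 and the *Sorcs1* ratio was −0.68. Without HFD cell 16 the *Sorl1* ratio was −0.34, and without REG cell 9 the *Sorcs3* ratio was 0.32. Without the 7 cells that stood apart in D1 or D2 markers, *Ntsr2* was at 1.17 and *Sort1* at −0.27. Of these 6 genes only *Sorcs2* kept its direction whichever single cell was left out, between −3.77 and −0.39. The lowest was without HFD cell 20 and the highest without REG cell 7. Within batch 2 its ratio ran from −5.55 without HFD cell 20 to 0.27 without REG cell 17.

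The batches gave different directions. In batch 1 the ratio was −2.66 for *Sorcs3*, −2.17 for *Sorcs2*, −1.64 for *Ntsr2*, −0.65 for *Sort1*, −0.22 for *Sorl1* and 0.19 for *Sorcs1*. In batch 2 it was 0.94 for *Sort1*, 0.56 for *Sorcs3*, 0.29 for *Sorl1*, −0.09 for *Ntsr2*, −0.15 for *Sorcs1* and −0.55 for *Sorcs2*. The sign was opposite in the batches for 4 of 6 members, against 50.8% of filtered genes. In batch 1, 3 of 6 members reached 1 in size, against 42.1% of filtered genes. These were lower in HFD cells, so 3 of 6 members were at −1 or less, against 23.8% of filtered genes. In batch 2 no member reached 1 in size, against 34.6% of filtered genes. Over all cells, 18.2% of filtered genes were past 1 in size with 1 sign in both batches, and no member was. Batch 1 held only 5 HFD cells. *Sorcs3* in those cells was at 0, 3.37, 6.24, 14.5 and 20.5 CPM, while the 13 REG cells of batch 1 ran from 0 to 363 CPM with a median of 17.998 CPM. The HFD cells lay within the range of the REG cells, and REG cell 9 alone gave 49.6% of the REG sum. *Sorcs2* in the 5 HFD cells was at 0 in 3 cells, 0.765 CPM in 1 and 14.5 CPM in 1, and *Ntsr2* was at 0 in 4 and 11.9 CPM in 1. *Sort1* in these cells was at 0 in 2 cells and at 56.4, 90.3 and 317 CPM, and *Sorl1* was at 0, 16.8, 38.6, 209 and 286 CPM. Both lay within the range of the REG cells of the batch, up to 391 CPM for *Sort1* and 368 CPM for *Sorl1*.

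**Figure D4:**
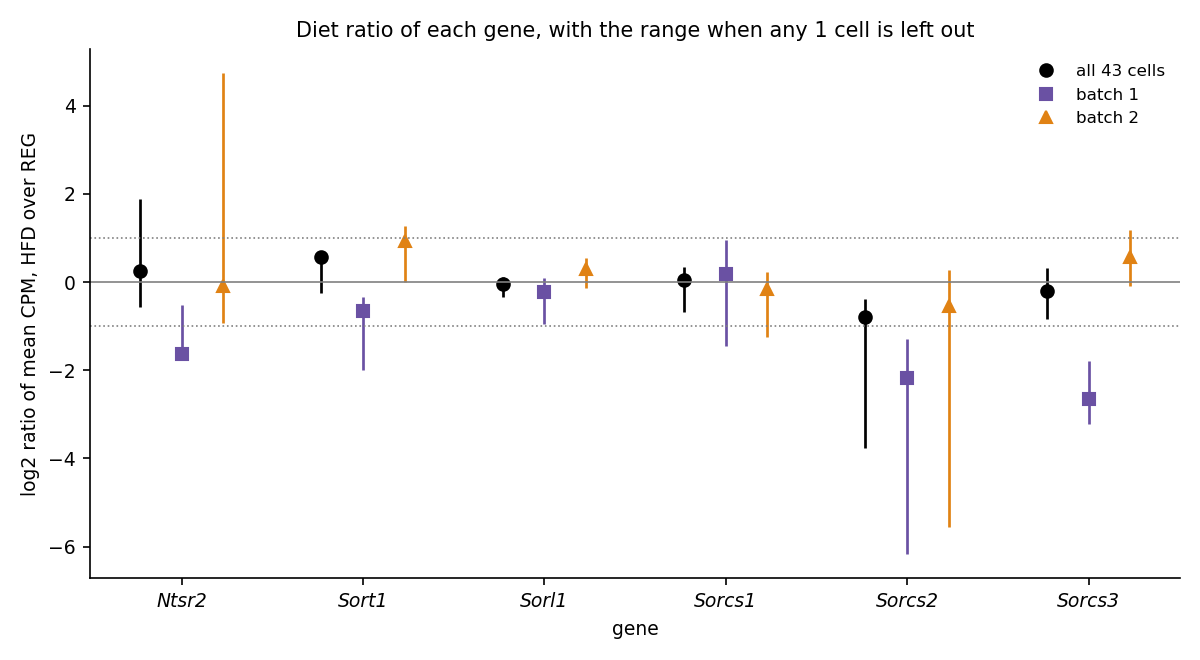
Log2 ratio of mean CPM, HFD over REG, for the 6 detected genes over all cells (circle), batch 1 (square) and batch 2 (triangle), with a line from the lowest to the highest ratio when any 1 cell is left out. Dotted lines mark 1 and −1, no circle lies beyond them, and the line for *Ntsr2* in batch 2 reaches 4.74 without REG cell 16.

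Genes around the receptors were counted in 6 lists. Of 52 filtered genes in these lists, 4 were past 1 higher and 4 past 1 lower in HFD cells, and the median ratio was −0.02. Of the 6 filtered genes for peptidases that can cleave neurotensin, 1 was higher and 2 were lower by this measure, each with the same sign in both batches. Of all filtered genes 18.2% were past 1 with 1 sign in both batches. Over the 6 lists together, 3 of 52 were so higher and 3 lower. *Mme*, neprilysin, was at 11.7 CPM in REG and 27.0 CPM in HFD (ratio 1.21), with 57.4% of the HFD sum in 1 cell. *Ece1*, an endothelin-converting enzyme that cuts peptides in endosomes, was at 69.1 and 20.5 CPM (−1.75), and *Ece2* was at 9.09 and 3.49 CPM (−1.38), with 52.3% of the REG sum and 54.8% of the HFD sum in 1 cell each. *Thop1*, thimet oligopeptidase, was the most abundant of the list at a median of 13.3 TPM, with a ratio of −0.19.

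For neurotensin processing, 0 of 4 filtered genes were past 1, and *Cpe*, carboxypeptidase E, led at 190.6 TPM with a ratio of 0.10. For receptor coupling and arrest, 1 of 9 was past 1: *Arrb2*, β-arrestin 2, was at 5.12 CPM in REG and 20.6 CPM in HFD (ratio 2.01, with 48.1% of the HFD sum in 1 cell). The most abundant of that list was *Prkcb*, a protein kinase C, at 490.5 TPM and a ratio of −0.06. For ligands and co-receptors of the sortilin family, 0 of 9 were past 1, and *App*, the amyloid precursor protein gene, led at 225 TPM with a ratio of 0.56. For trafficking partners, 2 of 18 were past 1 higher and 1 lower. The 2 that did so with 1 sign in both batches were *Vps26a*, a retromer subunit (16.9 and 39.9 CPM, ratio 1.24), and *Snx6*, a sorting nexin (29.5 and 13.6 CPM, ratio −1.11). *Ap2m1*, a clathrin adaptor subunit, led that list at 266 TPM with a ratio of 0.36. For shedding and intramembrane cleavage, 1 of 6 was past 1 lower, though not with 1 sign in both batches. Set beside the 23.3% of all filtered genes past 1 in size, 8 of 52 was no higher a share.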

How the data were processed

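Single-cell patch-seq libraries (amplified poly-A cDNA) were available for 43 cells. The authors pseudo-aligned the reads with kallisto (edgeR is also in the submitters' processing notes) to GRCm38 transcripts, summed transcripts to genes and removed cells of low quality. One deposited table holds the estimated counts, without normalization, and the other holds the TPM of the authors. Of the counts above 0, 65.5% were whole to within 0.01. Counts were not rounded, except for thinning and counting intervals.

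CPM was the estimated count over the cell total. Genes were kept, by the filter of the study, when 5 or more cells exceeded 15 CPM and the mean exceeded 4 CPM. A diet with 0 counts was set to 3 counts when ratios of all genes were taken. No test was run, because cells are not replicates and mice are not named. Shares above 0 carry exact 95% intervals where given. Detection means a count above 0. Transcript lengths were fitted per cell on genes with 1 annotated transcript over 800 bases and at least 20 counts (GENCODE, GRCm38). Between 30 and 452 such genes were used per cell, and the same annotation gave coordinates and sequences. Antisense genes *Gm12523*, *Gm16214* and *Gm45352* share words with *Sort1*, *Sorl1* and *Sorcs1*, and they are not among the 35825 genes listed. How many counts of these 3 members rest on shared words could therefore not be seen. If reads were matched without the antisense genes, whole counts of *Sort1*, *Sorl1* and *Sorcs1* would not show such sharing. The length fit was run on simulated lengths that followed the straight line it assumes, and the ratio on simulated counts without batches. Shares of counts between transcripts were not simulated.

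The members and lists were chosen with earlier results of these data known. The genes named were the 7 members, *Nts*, and from each of 6 lists the most abundant gene and those past a log2 ratio of 1 with the same sign in both batches. For each detected member, the 3 most correlated filtered genes were also named. The length reading, the D1 and D2 limits and the cells singled out were chosen after the data were seen. Alternatives were TPM, TMM and DESeq2 scaling, other summaries over cells, thinning, batches and leaving out cells. Software was R 4.3.3 with DESeq2 1.42.0 and edgeR 4.0.16, and Python 3.11.15 with scipy 1.17.1, pandas 2.3.3, matplotlib 3.10.9 and numpy 2.4.6. Protein sequences were not used here, and the most abundant gene of 1 list is not reported here.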

Additional observations from a re-analysis of the deposited data

How the results depend on the processing

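No paired analysis was possible because no result comes from a test and the cell numbers only name cells. The median log2 ratio of the members, 0.01 as given, was −0.23 with TPM, 0.11 with TMM factors, 0.67 with summed counts, −0.45 when mean log2(CPM + 1) was subtracted, 0.10 in batch 2, −1.14 in batch 1, −0.42 as the mean of both batches, and 0.10 and −0.12 as coefficients fitted by edgeR without and with batch. With any 1 cell left out it ran from −0.35 to 0.18. The number of members past 1 in size, 0 as given, was 2 with DESeq2 size factors, as a difference of mean log2(CPM + 1) and as the mean of both batches, 3 with summed counts and in batch 1, and 1 with totals without *Lars2* and *Gm19220*, thinned, by both edgeR coefficients and without the 7 cells that stood apart in D1 or D2 markers. With any 1 cell left out it ran from 0 to 1. Over all filtered genes, TMM moved the median by 0.13 and DESeq2 moved it by 0.19. Without the filter 39.8% of genes were past 1. The median over cells gave no ratio for *Ntsr2*, whose median was 0 in both diets. It gave none for *Sorcs2* either, whose median was 1.84 CPM in REG cells and 0 in HFD cells.

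Over these alternatives *Sorcs2* was below 0 in all but summed counts (1.25), where HFD cell 20 weighs by its depth. *Sort1* ran from −0.65 to 1.13, *Ntsr2* from −1.64 to 1.83, *Sorl1* from −1.54 (median over cells) to 0.29, *Sorcs1* from −2.78 (median over cells) to 1.24 and *Sorcs3* from −2.66 to 0.56. The share of cells with a neurotensin receptor, 34.9%, was 20.9% at a count of at least 5 and also after thinning, and 13.95% at CPM above 15. *Sort1* and *Sorl1* kept ranks 1 and 2 by level in every alternative run, and by mean TPM *Ntsr2* rose to rank 3.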

Other observations

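The filtered genes whose CPM was most like each member over the 43 cells were named by the highest Spearman correlation, as a description without a test. They were *Tfdp1* (0.71), *Cdh2* (0.70) and *Ctnnb1* (0.68) for *Sort1*. For *Sorl1* they were *Dctn6* (0.65), *Tln2* (0.61) and *Psmg3* (0.56). For *Sorcs1* they were *Spryd7* (0.68), *Tmem129* (0.60) and *Mob4* (0.59), and for *Sorcs2* they were *Fem1a* (0.60), *Spryd7* (0.60) and *Fanca* (0.58). For *Sorcs3* they were *Rnh1* (0.68), *Plau* (0.64) and *9030612E09Rik* (0.64). For *Ntsr2* they were *Crtac1* (0.63), *Amer3* (0.61) and *Arf3* (0.58). Within batches these values ranged from 0.40 (*Plau* with *Sorcs3* in batch 1) to 0.83 (*Cdh2* with *Sort1* in batch 2). All points share library depth. *Sort1* CPM had a Spearman correlation of 0.61 with the total count of the cell (0.80 in batch 1 and 0.47 in batch 2).

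Some relations of *Sorcs3* had opposite signs in the batches, and 3 of them were picked after their values were seen, with no test of the difference. Its Spearman correlation with *Nts* was 0.77 over the 18 cells of batch 1 and −0.42 over the 25 cells of batch 2. With *Sort1* it was 0.64 and −0.44, and with the total count 0.35 and −0.69. With *Sorl1* (0.27 and 0.16) and with microglial markers (−0.17 and −0.06) the sign was the same in both.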
